A study of Mus musculus with 28 samples.

Results

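The comparison described here is the response of wild-type mouse calf muscle to contraction: 7 contracted samples against 7 resting samples, which are 14 of the 28 samples in the study. The mice were female FVB animals of 4 months, and the tissue was the gastrocnemius, plantaris and soleus as 1 block. In the contracted group the sciatic nerve was stimulated for 15 min with the muscle in place, and the muscle was collected at once, whereas the resting group was not stimulated. The other 14 samples, used only for a comparison of responses and for the estimate of spread, came from mice of the same strain, sex and age that lacked the kinase LKB1 (gene Stk11) in skeletal muscle, again 7 contracted and 7 resting. The labels and design text name neither the promoter that drove the deletion nor the anaesthesia, and do not say whether a contracted and a resting muscle came from the same animal. The p-values therefore measure the spread between these samples, which may in part be technical. RNA was hybridised to 1-colour Illumina bead arrays. All 8389 genes with a probe above an intensity of 24 on at least 7 of the 28 arrays were compared, each by its brightest probe.

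A bout of contraction raises calcium and energy turnover inside the fibre, and signalling through calcium-dependent kinases, AMP-activated protein kinase and the MAP kinases reaches the nucleus within minutes. The first transcripts to respond are usually the immediate-early genes, which need no new protein to be switched on: the AP-1 factors (FOS and JUN families, ATF3), the EGR and NR4A factors, and RNA-destabilising proteins such as ZFP36. Inflammatory mediators, stress proteins and metabolic regulators such as PGC-1α (gene Ppargc1a) are known to follow over later minutes and hours, so tissue taken directly after a short bout samples the start of this sequence.

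The labelled tissue carried its markers: the mean log2 intensity of 7 general skeletal muscle genes lay between 14.35 and 14.71 in contracted samples and between 14.42 and 14.68 in resting samples. The makeup of 4 samples stood apart from the rest. Contracted sample 4 had a mean of 10.22 over 9 slow-fibre markers, against 12.18 to 12.63 in the other contracted samples and 11.97 to 12.49 in the resting ones. Lymphocyte markers were high in contracted sample 7 (mean log2 intensity 9.19 over 7 markers) and in resting samples 4 and 5 (8.73 and 8.05), against 6.25 to 6.41 in the other 6 contracted samples and 6.28 to 6.34 in the other 5 resting samples. In bulk tissue, fewer cells of a type and less RNA per cell cannot be told apart. Rank correlations between any pair of the 14 wild-type arrays lay between 0.893 and 0.985. Stk11 itself averaged 10.45 ± 0.16 in contracted and 10.32 ± 0.20 in resting wild-type samples (log2 intensity, SD, n = 7 each), against 8.97 ± 0.22 in contracted and 8.96 ± 0.32 in resting knockout samples.

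**Figure D1:**
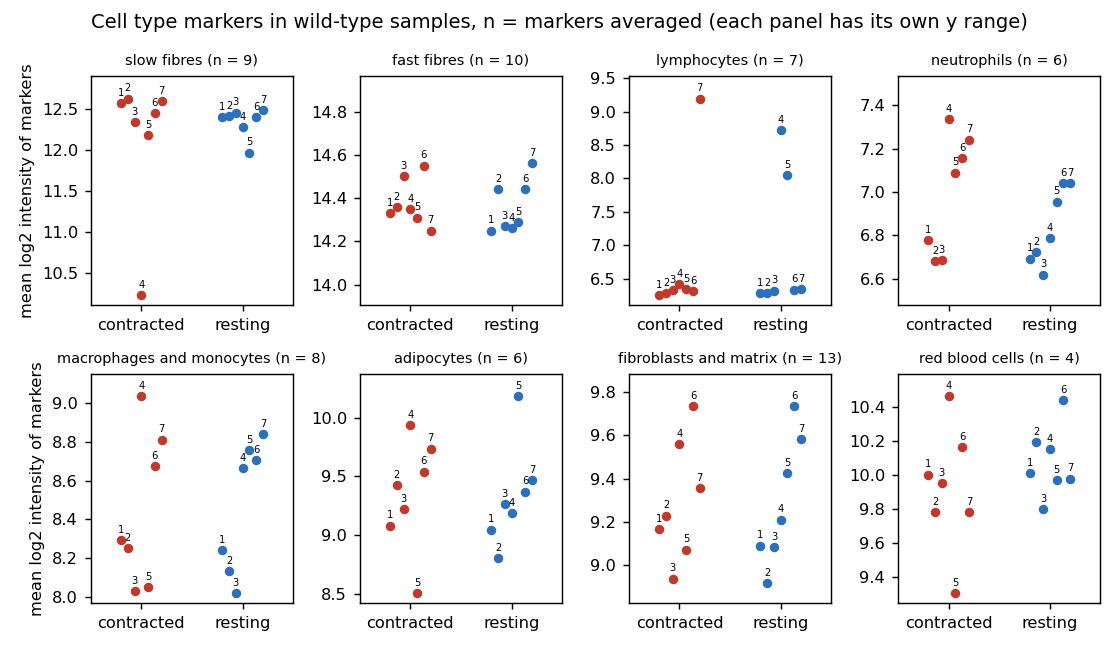
Mean log2 intensity of the markers of 8 cell types (y axis) in each contracted (red) and resting (blue) wild-type sample, with sample numbers above the points and the number of markers averaged in each title. Contracted sample 4 sits at 10.22 for slow fibres, and contracted sample 7 and resting samples 4 and 5 sit above 8 for lymphocytes while the others are at or below 6.41.

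Directly after 15 min of contraction no transcript of wild-type muscle differed from rest past the threshold of the test, in a fit that treats the samples as unpaired. Fits with array weights or with the replicate number as a block each called 1 gene, Cxcl1 or Egr1, as given in the closing section. The 3 largest differences in mean were those of the chemokine gene Cxcl1, the cytokine-signalling inhibitor gene Socs3 and the transcription factor gene Egr1. All had the higher mean in contracted muscle, by above 2-fold on the scale of the fit, which adds an offset of 50 to the intensities. No gene had a mean lower by that much on this scale. None of the 8389 genes passed: limma with Benjamini-Hochberg adjustment called 0 genes, a background of 0% in both directions, and the smallest adjusted p was 0.394, for Cxcl1. At an unadjusted limma p under 0.05 there were 89 genes (1.06% of those tested), of which 55 (0.656%) were higher and 34 (0.405%) lower in contracted muscle. An exact two-sided permutation test over all 3432 divisions of the 14 samples gave 133 genes (1.59%) under 0.05 unadjusted and 0 after adjustment. Without any effect, a share of about 0.05 of genes is expected under an unadjusted p of 0.05, and both counts were below that share. The adjusted p was 0.9999 for every gene other than Cxcl1 that is named below, in limma, and 1 in the permutation test. Every difference below is therefore given as a value that missed the adjusted threshold, and the exact permutation p printed beside some of them are unadjusted.

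On the scale of the fit the differences were small and their limits narrow. The offset of 50 added to the intensities makes the differences of dim genes smaller. For such genes the limits below therefore do not bound the fold of the intensity itself. The median absolute difference over all genes was 0.07 on the log2 scale, below the median standard error of 0.13, and 99% of genes differed by less than 0.33. The 95% interval lay wholly within a 2-fold change in either direction for 8243 genes (98.3%), and within a 1.5-fold change for 7441 genes (88.7%). Only 10 genes differed by more than 1.5-fold on this scale. The 8 that were higher in contracted muscle were Cxcl1, Socs3, Egr1, Ptx3, Agt, Sap30, Atf3 and Krt14. The 2 that were lower were Pdlim5, a Z-disc adaptor gene, with a difference of -0.63, and the uncharacterised 6430548M08Rik with -0.59; both, and Krt14, fell outside the rule for named genes and were chosen after their values were seen. Krt14, a keratin gene of skin epithelium, reached 10.44 in its highest contracted sample, against a contracted median of 6.36 and a resting range of 6.21 to 6.96.

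**Figure D2:**
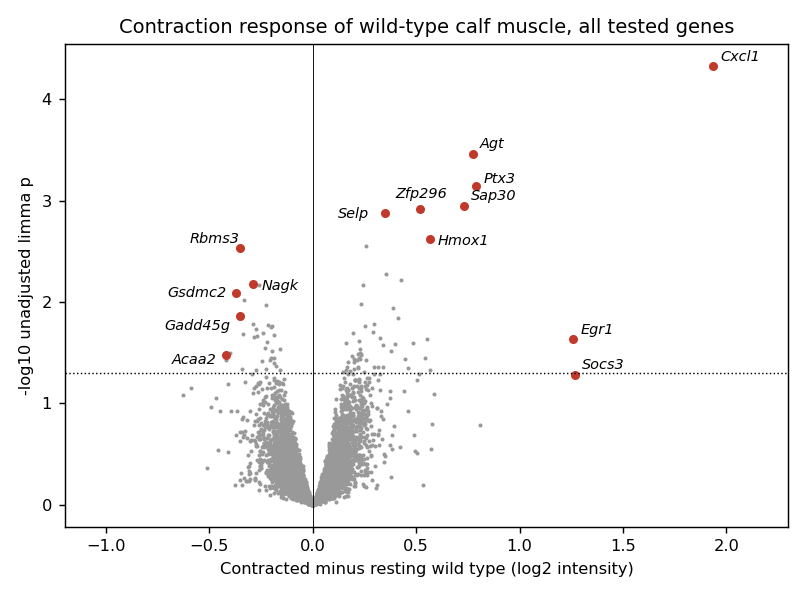
Each point is 1 of the 8389 genes; the x axis is the contracted minus resting difference in wild-type muscle (log2 intensity) and the y axis is -log10 of the unadjusted limma p, with the dotted line at 0.05. Cxcl1 lies alone at the upper right, with a difference of 1.94, and Egr1 and Socs3 lie near 1.26 with larger p, while most genes lie within 0.33 of 0.

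Cxcl1, which encodes a chemokine that attracts neutrophils, had the largest difference and the smallest p. Its log2 intensity ran from 7.98 through a median of 9.09 to 10.32 in contracted samples, against 6.29, 7.10 and 8.47 in resting samples. All 7 contracted samples were above the resting median, and 5 of them were above the highest resting sample. The means were 9.12 ± 0.94 in contracted and 7.18 ± 0.83 in resting muscle (SD, n = 7 each), a difference of 1.94 with a standard error of 0.40 and a 95% interval from 1.11 to 2.76. With the offset of 50 that the fit adds to the intensities this was 3.83-fold, and the offset makes the folds of dim probes smaller. The unadjusted limma p was 4.69e-05 and the exact permutation p was 0.00233. The probe was above the intensity limit on 7 contracted and 5 resting arrays, so the resting level is close to background and the fold is uncertain at its lower end.

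The sequence around the start of Cxcl1 is shown because this gene led the comparison, and that of Fos because it is a classic target of calcium and MAP kinase signalling whose level differed less. Both come from the RefSeq annotation of GRCm38.p6 and run from 250 bases before to 50 bases after the annotated start. Both were chosen after the values were seen, since the rule for printing promoters required a called gene and there was none. Capitals mark matches to the motifs searched on both strands: the cyclic AMP response element TGACGTCA, its core letters TGACG, the AP-1 site TGANTCA, the serum response element, the TATA box TATAAA and an NF-kB site (GGG and TCC with any 4 letters between). The NF-kB motif was added after the values were seen.
Cxcl1, chr5:90890995-90891294, plus strand: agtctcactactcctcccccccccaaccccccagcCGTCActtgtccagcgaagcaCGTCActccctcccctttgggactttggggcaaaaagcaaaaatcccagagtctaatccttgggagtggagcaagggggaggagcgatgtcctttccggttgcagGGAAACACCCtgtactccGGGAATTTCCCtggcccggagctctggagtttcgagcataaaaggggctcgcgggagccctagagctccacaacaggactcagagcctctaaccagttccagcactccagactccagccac
Fos, chr12:85473640-85473939, plus strand: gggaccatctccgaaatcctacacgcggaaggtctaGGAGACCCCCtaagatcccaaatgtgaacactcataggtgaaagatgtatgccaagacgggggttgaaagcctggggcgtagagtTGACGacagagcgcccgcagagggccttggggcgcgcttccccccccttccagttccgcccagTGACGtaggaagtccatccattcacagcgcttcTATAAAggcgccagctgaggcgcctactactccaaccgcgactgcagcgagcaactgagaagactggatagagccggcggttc

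The Cxcl1 window held 3 matches to the NF-kB letters, at -89 to -80, -71 to -62 and -70 to -61 from the start. The last 2 overlap and read the same bases on opposite strands. It also held 2 matches to the core letters of the cyclic AMP response element, at -215 to -211 and -194 to -190 on the minus strand. The Fos window held core letters at -129 to -125 and -66 to -62, a TATA box at -33 to -28 and a single NF-kB match at -214 to -205. Such letters are common: of 32851 RefSeq promoters, 19.2% held the NF-kB letters, 20.8% the core letters TGACG, 13.6% the TATA box, 7.81% the AP-1 site, 1.79% the full response element and 1.63% the serum response element. A match is a description of the letters only.

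Of the other genes named for their small p, Ptx3, which encodes the acute-phase pattern-recognition protein pentraxin 3, ranged from 6.88 through 7.64 to 7.94 in contracted samples, against 6.18, 6.75 and 7.08 in resting samples. Its difference was 0.79 with a standard error of 0.21 (exact permutation p = 0.00583), and its second probe gave 0.63. The probe was above the limit on 7 contracted and 5 resting arrays, with a resting mean of 6.73 close to the limit near 6.65. Contracted samples 4 and 5 lay within the resting range and the other 5 lay above it. Agt, which encodes angiotensinogen, the precursor of angiotensin peptides, ranged from 6.95 through 7.75 to 7.99 in contracted samples, against 6.31, 6.68 and 7.45 in resting samples. Its difference was 0.77 with a standard error of 0.19 (exact permutation p = 0.00758). Its probe was above the limit on 7 contracted and 4 resting arrays, with a resting mean of 6.78 close to the limit. Il1r2, the decoy receptor for interleukin 1, differed by 0.26, but its probe was above the limit on 4 contracted arrays and on no resting array, so no fold is given. Neutrophil markers, whose cells CXCL1 attracts, had means from 6.68 to 7.34 (median 7.09) in contracted samples, against 6.62 to 7.04 (median 6.79) in resting samples. All 6 measured markers were on average higher in contracted muscle, by 0.05 to 0.26. The sample means, some of them close to the limit near 6.65, were highest in contracted sample 4. Without that sample the median difference of the markers was 0.08, against 0.16 with all samples. Ngp, Camp, Ltf, Mmp8 and Cxcr2 were not among the genes that could be tested. The part of these cells in the Cxcl1 difference was not tested.

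Across the 16 of 26 listed cytokine and chemokine genes that could be tested, 0 were called, 8 had a difference above 0 and the median was -0.01, against a median of -0.00039 over all genes. Apart from Cxcl1 the members lay between -0.21 and 0.31, within the 0.33 that bounded 99% of all genes. Ccl4, a chemokine for monocytes and T cells, differed by 0.31 and Il1b, which encodes interleukin 1β, by 0.26, each with widely overlapping groups. Both were near background: Ccl4 was above the limit on 4 contracted and 4 resting arrays, and Il1b on 3 contracted arrays and 1 resting array. Il15, a cytokine made by muscle fibres, had the lowest difference, -0.21. Il6, the best known contraction-induced cytokine of muscle, was not among the genes that could be tested.

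**Figure D3:**
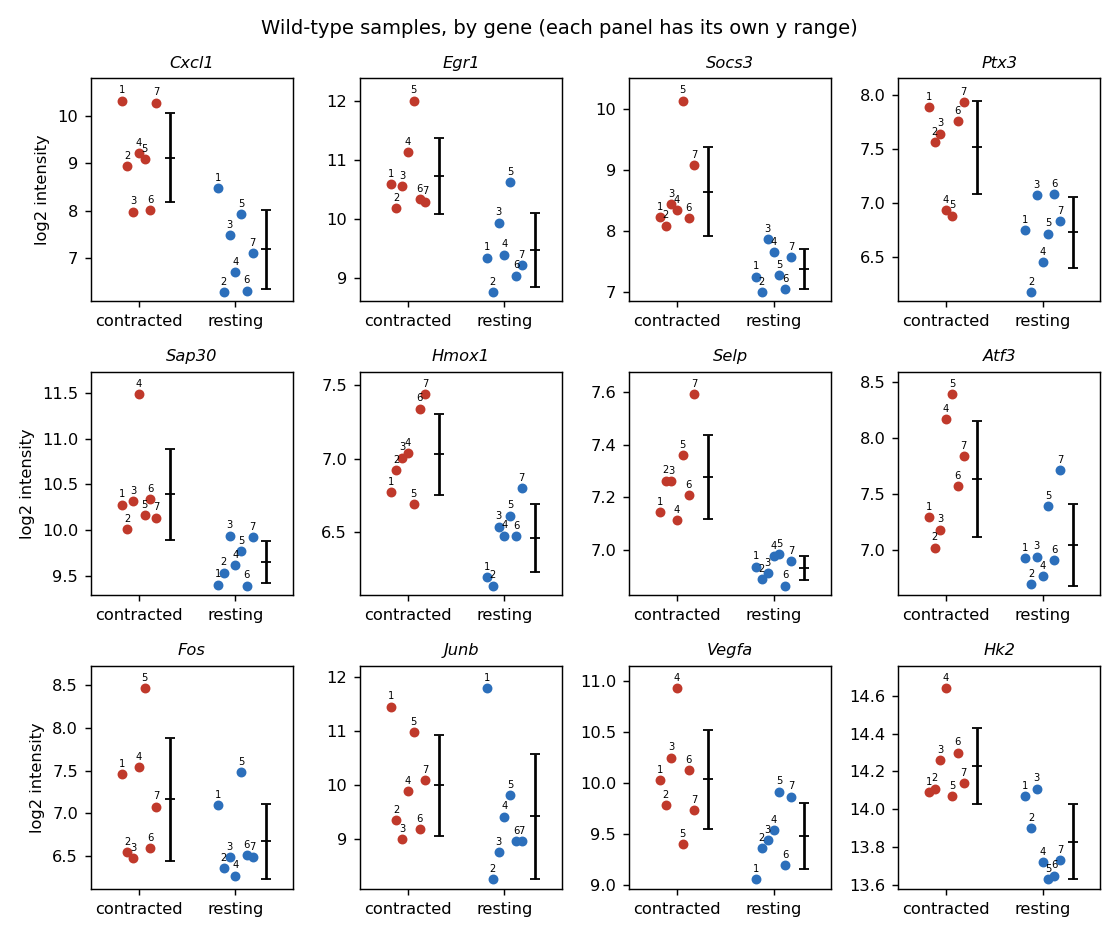
Log2 intensity (y axis, with its own range in each panel) of 12 genes in each contracted (red) and resting (blue) wild-type sample; numbers are sample numbers, and black bars give the mean and 1 SD of 7 samples. Socs3, Sap30 and Selp show no overlap between the groups, Cxcl1 and Egr1 overlap in a few samples, and Fos and Junb overlap throughout most of their range.

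In 3 genes (0.0358% of those tested), Socs3, Sap30 and Selp, every contracted sample lay above every resting sample, and in no gene did every contracted sample lie below. If the group labels carried no information, a gene would separate fully in either direction with a probability of 0.000583. The observed share was below this, so the count of such genes does not exceed what chance would give. Socs3, the feedback inhibitor of JAK-STAT signalling, ranged from 8.09 through 8.35 to 10.14 in contracted samples, against 7.00, 7.28 and 7.87 in resting samples. Contracted sample 5 was the highest, at 10.14, and sample 7 was next, at 9.08. The means were 8.65 ± 0.73 in contracted and 7.38 ± 0.33 in resting muscle (SD, n = 7 each), a difference of 1.27 with a 95% interval from -0.01 to 2.55. The unadjusted limma p was 0.0520, whereas the exact permutation p was 0.000583, the smallest that 3432 divisions can give. The limma fit shares 1 spread between all 4 groups, and the knockout SDs for Socs3 were 1.85 in contracted and 1.48 in resting muscle. Of the 17 JAK-STAT and SOCS genes tested of 20 listed, 0 were called, 11 were above 0 and the median difference was 0.04. Cish, another STAT-induced inhibitor, differed by 0.50, with contracted values from 9.29 to 12.98 against resting values from 9.38 to 12.07.

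Sap30, which encodes a subunit of the SIN3 histone deacetylase complex, ranged from 10.01 through 10.28 to 11.48 in contracted samples, against 9.40, 9.62 and 9.94 in resting samples. The difference was 0.73 with a standard error of 0.20 (limma adjusted p = 0.9999). Contracted sample 4, the one low in slow-fibre markers, was the highest, and without it the difference was 0.55. Selp, which encodes P-selectin, an adhesion molecule that endothelial cells and platelets use to slow passing leukocytes, ranged from 7.11 through 7.26 to 7.59 in contracted samples, against 6.86, 6.94 and 6.98 in resting samples. Its difference was small, 0.35, but the resting samples were tightly grouped, with an SD of 0.05. The exact permutation p of both Sap30 and Selp was again 0.000583.

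Selp belongs to the NF-kB pathway and target list, in which 14 of the 15 tested members of 21 listed had a difference above 0. None was called, and the list's median was 0.17. Icam1, the leukocyte adhesion receptor of endothelium, averaged 8.22 ± 0.73 in contracted and 7.66 ± 0.52 in resting muscle (SD, n = 7 each), a difference of 0.57. Contracted sample 7, which was high in lymphocyte markers, was the highest at 9.71, and resting sample 2 was the lowest at 6.58. Nfkbiz, an inducible nuclear regulator of NF-kB, differed by 0.24. The lowest member was the inhibitor gene Nfkbib, with -0.03.

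Among the AP-1 factors, 8 of 12 listed genes were tested, 0 were called and 6 had a difference above 0, with a median of 0.27. Atf3, a stress-induced partner of JUN, ranged from 7.02 through 7.57 to 8.39 in contracted samples, against 6.70, 6.93 and 7.71 in resting samples, a difference of 0.59. Contracted samples 4, 5 and 7 lay above every resting sample. Junb differed by 0.57, but its groups spread widely, from 8.99 to 11.45 in contracted and from 8.24 to 11.79 in resting samples, and sample 1 was the highest in both. Fos had 6.48, 7.08 and 8.47 as its lowest, median and highest contracted values, against 6.27, 6.49 and 7.48 in resting samples. Contracted sample 5 was the highest of all, and resting sample 5 was the highest of its group. The Fos difference of 0.49 had a 95% interval from -0.45 to 1.44 (exact permutation p = 0.127), and its probe was above the limit on 4 contracted and 2 resting arrays. Fosb was above the limit on 1 contracted array only, so no fold is given. Jun stood on the other side: it ranged from 8.89 to 9.29 in contracted samples, against 8.96 to 9.66 in resting samples, a difference of -0.27 (exact permutation p = 0.0332).

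Egr1, an immediate-early zinc finger factor, was the clearest of the EGR, SRF and NR4A factors. It ranged from 10.18 through 10.56 to 12.01 in contracted samples, against 8.76, 9.34 and 10.62 in resting samples. All 7 contracted samples were above the resting median, and resting sample 5 was the only resting sample to reach into the contracted range. The difference was 1.26 with a standard error of 0.52 and a 95% interval from 0.18 to 2.33. This fit shares 1 spread between all 4 groups. The Egr1 SDs were 0.65 contracted and 0.62 resting in wild-type muscle, against 1.585 and 1.04 in knockout muscle. The unadjusted limma p was 0.0233 and the exact permutation p was 0.00466. Of the 10 listed genes, 7 were tested, 0 were called, 5 were above 0 and the median was 0.10. Nr4a3, an orphan nuclear receptor linked to muscle fuel use, differed by 0.34, with contracted samples from 6.85 to 7.89 against resting samples from 6.35 to 7.51. Egr2 differed by 0.10 and Egr3 by -0.07. Nr4a1, the family member most often cited for exercised muscle, was above the limit on no array, as were Ier2 and Btg2.

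The other immediate-early genes gave 21 tested members of 32 listed, of which 0 were called and 17 were above 0, with a median of 0.09. Bhlhe40, a transcriptional repressor tied to the clock and hypoxia, ranged from 9.72 through 9.97 to 10.64 in contracted samples, against 9.17, 9.40 and 10.08 in resting samples. Its difference was 0.54, and resting sample 7 was the only resting sample inside the contracted range. Hes1, a Notch target, differed by 0.33. Zfp36, whose protein speeds decay of inflammatory mRNAs, differed by 0.29, with a 95% interval from -0.22 to 0.80. Cyr61 (now Ccn1), a matrix signalling gene sensitive to stretch, averaged 7.05 in both groups, a difference of -0.0021. Krüppel-like factors gave 9 tested of 11 listed, 0 called, 5 above 0 and a median of 0.03. Klf4 was the highest with 0.44, although its dimmer probes gave 0.10 and 0.27, and Klf6 was the lowest with -0.16. The MAP kinase phosphatases and feedback regulators gave 10 tested of 16 listed, 0 called, 7 above 0 and a median of 0.07. Dusp1, the phosphatase most often grouped with immediate-early genes, differed by -0.12, with a 95% interval from -0.58 to 0.34.

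Zfp296, a zinc finger gene, was above the limit on 6 contracted arrays and on no resting array. With its resting values set at the limit, its contracted mean was 1.26-fold higher on the scale of the fit. This is a point estimate and not a firm minimum, and it includes contracted sample 4, which was far above the rest, at 8.02. Zfp251, a further zinc finger gene, differed by 0.35, and Fzd7, a Wnt receptor gene, by 0.43. Both were above the limit on every wild-type array.

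Stress genes were mixed. Hmox1, which encodes the haem-degrading enzyme haem oxygenase 1, ranged from 6.69 through 7.01 to 7.44 in contracted samples, against 6.14, 6.48 and 6.80 in resting samples. Its difference was 0.57 with a standard error of 0.17 (exact permutation p = 0.00175), but its probe was above the limit on 7 contracted arrays and on 1 resting array only. The resting mean of 6.46 was thus below the limit, and the size of the difference is uncertain. Its list of metallothionein and oxidative stress genes had 12 tested members of 15, 0 called, 6 above 0 and a median of -0.04. The metal-binding metallothionein genes Mt2 and Mt1 differed by 0.50 and 0.37, and every contracted value of Mt2 lay above the resting median. Hspa1a, the inducible HSP70 gene, ranged from 7.01 to 8.62 in contracted samples, against 6.40 to 8.16 in resting samples, a difference of 0.38; it has a near-identical copy, so its probe may report both. The 18 heat shock and chaperone genes tested of 24 listed had 0 called, 8 above 0 and a median of -0.01. The p53-linked and integrated stress list had 14 tested of 19, 0 called, 5 above 0 and a median of -0.03. Within it the GADD45 genes, growth-arrest proteins that act on stress kinases, went opposite ways in value: Gadd45b differed by 0.44 and Gadd45g by -0.35. Gadd45b was highest in contracted sample 1, at 9.42. Gadd45g ranged from 12.30 through 12.86 to 13.25 in contracted samples, against 12.84, 13.21 and 13.42 in resting samples, and its second probe gave -0.40. Ddit4, an inhibitor of the growth kinase mTOR complex, was the lowest of the list with -0.46.

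Vegfa, the main angiogenic growth factor released by muscle, ranged from 9.40 through 10.03 to 10.93 in contracted samples, against 9.06, 9.44 and 9.92 in resting samples. The difference was 0.55 with a 95% interval from 0.08 to 1.03 (exact permutation p = 0.0227), and its second probe gave 0.49. Contracted sample 4 was the highest. Its receptor gene Flt1 differed by -0.21. In all, 18 of 20 angiogenesis and hypoxia genes were tested, with 0 called, 10 above 0 and a median of 0.02.

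Fuel genes showed small differences in either direction. Hk2, which encodes hexokinase 2, the enzyme that traps glucose in the fibre and a known exercise-responsive gene, ranged from 14.07 through 14.14 to 14.64 in contracted samples, against 13.63, 13.73 and 14.11 in resting samples. All 7 contracted samples were above the resting median, resting samples 1 and 3 came as high as the lowest contracted samples, and contracted sample 4 was the highest. The difference was 0.40 (exact permutation p = 0.00291). Pdk4, which blocks pyruvate oxidation and is known to rise hours after exercise, differed by -0.32, with a 95% interval from -0.75 to 0.12 and its lowest value, 11.68, in contracted sample 4. Slc2a4, which encodes the insulin- and contraction-regulated transporter GLUT4, differed by 0.08 with a 95% interval from -0.20 to 0.35. Prkab2, a β subunit of AMP-activated protein kinase, differed by 0.26. The list of glucose uptake, fuel choice and insulin signalling genes had 21 tested of 30, 0 called, 11 above 0 and a median of 0.04. Glycolysis and glycogen genes had 16 tested of 22, 0 called, 13 above 0 and a median of 0.06, with Phkg1, the catalytic subunit of phosphorylase kinase, at 0.29 and Pygm, muscle glycogen phosphorylase, at 0.26.

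Ppargc1a, whose protein PGC-1α drives mitochondrial biogenesis, ranged from 9.10 through 9.88 to 10.17 in contracted samples, against 9.02, 9.72 and 10.22 in resting samples. The groups overlapped almost fully, and the difference was 0.16 with a 95% interval from -0.20 to 0.53. It was nevertheless the highest of the 21 tested of 28 listed regulators of mitochondrial and metabolic transcription, of which 0 were called, 7 were above 0 and the median was -0.03. Crem, a cyclic AMP responsive factor, was the lowest with -0.22. Fatty acid uptake and oxidation genes had the lowest median of the 24 pathway lists with all samples, -0.10, with 18 tested of 22, 0 called and 2 above 0; without contracted sample 4 the median was -0.03. Acaa2, the last enzyme of mitochondrial β-oxidation, ranged from 9.88 to 10.28 in contracted samples, against 9.98 to 10.86 in resting samples, a difference of -0.42. Of its other 3 probes, 2 gave -0.33 and -0.37 and the dimmest gave 0.02. Oxidative phosphorylation subunits had 35 tested of 40, 0 called, 8 above 0 and a median of -0.02. Tricarboxylic acid cycle genes had 15 tested of 17, 0 called, 9 above 0 and a median of 0.04, and cytosolic ribosomal proteins had 15 tested of 23, 0 called, 3 above 0 and a median of -0.04, which was -0.10 without contracted sample 4 and then the lowest of the lists.

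**Figure D4:**
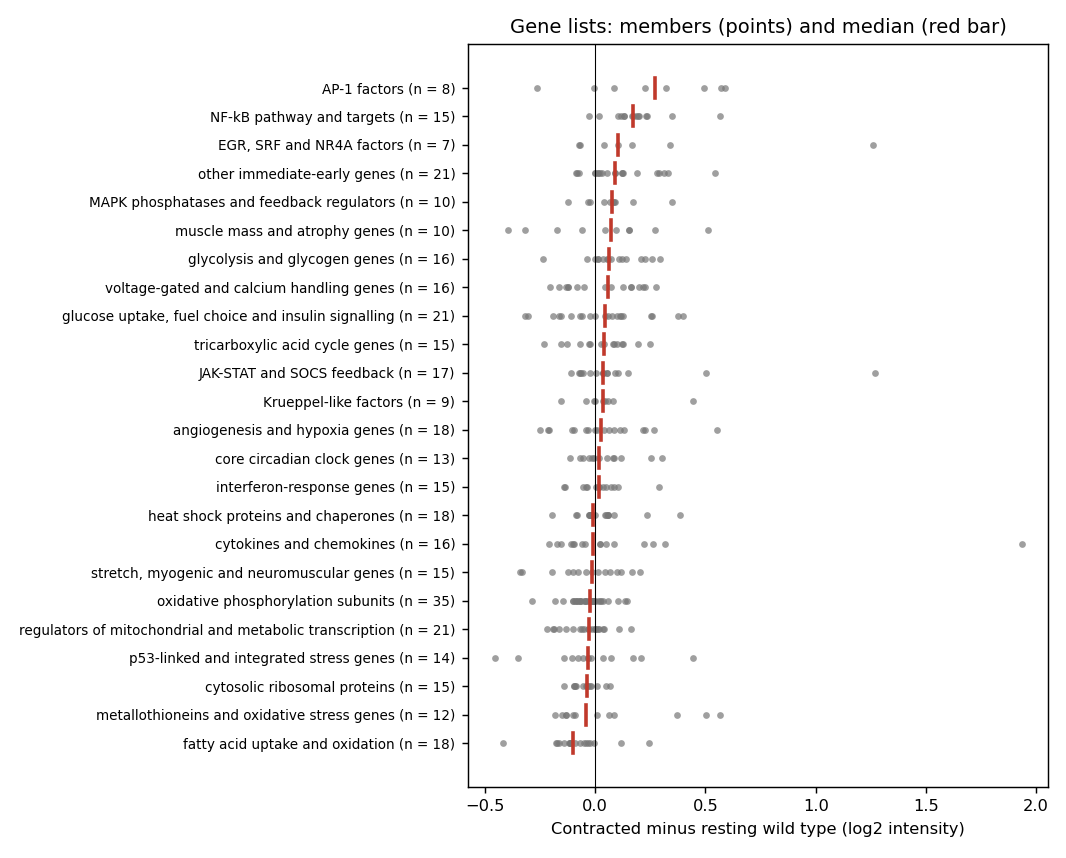
Differences between contracted and resting wild-type muscle (x axis, log2 intensity) of every tested member of 24 gene lists (rows, with the number of members tested); points are genes and red bars are medians. AP-1 factors have the highest median, 0.27, and fatty acid genes the lowest, -0.10, with all samples included, while Cxcl1, Socs3 and Egr1 stand apart within their lists.

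Several list medians depended on the samples that stood apart. Without contracted sample 4 the median was 0.17 for the EGR, SRF and NR4A factors, 0.11 for the MAP kinase phosphatases, -0.05 for cytokines and chemokines, -0.04 for oxidative phosphorylation, 0.02 for the tricarboxylic acid cycle, -0.02 for both the p53-linked list and the metabolic regulators, and 0.0018 for clock genes. It changed sign, to 0.05 for heat shock genes, 0.01 for the stretch, myogenic and neuromuscular list and -0.04 for interferon-response genes. Without all 4 samples it also changed sign for cytokines and chemokines (0.01), JAK-STAT genes (-0.01) and glucose and insulin genes (-0.01). The AP-1 and NF-kB medians were 0.25 and 0.19 without contracted sample 4, and 0.21 and 0.17 without all 4.

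Genes of muscle mass, stretch and calcium handling gave differences from -0.39 to 0.51. Trim63, the muscle ubiquitin ligase MuRF1, ranged from 11.64 through 12.36 to 12.72 in contracted samples, against 10.95, 11.91 and 12.11 in resting samples, a difference of 0.51 (exact permutation p = 0.0513). Klhl38, a muscle gene often grouped with atrophy genes, differed by -0.39. Their list had 10 tested of 13, 0 called, 6 above 0 and a median of 0.07, which was 0.01 without contracted sample 4. The stretch, myogenic and neuromuscular list had 15 tested of 20, 0 called, 7 above 0 and a median of -0.02. The stretch-responsive gene Ankrd2 was at 9.74 in contracted sample 4 and between 11.19 and 11.72 in the other contracted samples, against 10.95 to 12.00 in resting samples. Voltage-gated and calcium handling genes had 16 tested of 23, 0 called, 9 above 0 and a median of 0.06. Clock genes had 13 tested of 17, 0 called, 7 above 0 and a median of 0.02, and interferon-response genes had 15 tested of 20, 0 called, 10 above 0 and a median of 0.02. The interferon product gene Isg15 was above the limit on 4 contracted arrays and 1 resting array, so its difference of 0.29 is one of values mostly at background.

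The 10 genes of smallest p among those lower in contracted muscle differed by -0.37 to -0.20. The leading one was Rbms3, an RNA-binding protein gene, which ranged from 7.72 through 7.77 to 8.15 in contracted samples, against 7.86, 8.24 and 8.57 in resting samples. Its difference was -0.35 (exact permutation p = 0.00816), and all 7 contracted samples were below the resting median. Nagk, an amino sugar kinase gene, differed by -0.29, but its other 3 probes gave -0.12, -0.0024 and 0.10. Stard5, a sterol-binding protein gene, differed by -0.33 and Apobr, a lipoprotein receptor gene, by -0.29, and the second probe of each gave 0.03 and -0.00015. The others by the same rule, Rerg, Pigz, Tbc1d23 and Zfp748, differed by -0.26, -0.23, -0.21 and -0.20. Gsdmc2, a gasdermin gene, was above the limit on no contracted array and on 3 resting arrays, and no fold is given.

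Markers of the cell types in the tissue differed little between the groups, and 0 of the 92 markers tested of 131 listed were called. The 9 slow-fibre markers were all lower on average in contracted muscle, with a median difference of -0.26; without contracted sample 4 the median was 0.11. The 10 fast-fibre markers tested had a median of 0.01 and the 7 general muscle markers 0.0039. Lymphocyte markers had a median of -0.14, and -0.02 without the 4 samples that stood apart. Macrophage and monocyte markers had a median of -0.05, neutrophil markers 0.16, red blood cell markers -0.15, endothelial and mural markers 0.04, fibroblast and matrix markers 0.04, adipocyte markers -0.02, Schwann cell markers 0.12 and satellite cell markers 0.08. Leaving out contracted sample 4 also moved several other medians: it gave 0.08 for neutrophils, -0.25 for red blood cells, -0.16 for macrophages and monocytes, -0.125 for adipocytes, -0.09 for lymphocytes, 0.13 for satellite cells, 0.06 for general muscle and 0.0026 for fast fibres. For fibroblast and matrix markers it turned the sign, to -0.03, and for endothelial and mural markers the sign turned, to -0.02, without all 4 samples that stood apart. Macrophage marker means ran from 8.03 to 9.04 in contracted samples, against 8.02 to 8.84 in resting samples, with the highest in contracted sample 4.

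Spread within the groups was similar: the median SD was 0.21 in contracted and 0.23 in resting muscle, and the contracted SD was the larger in 3778 of the 8389 genes. An SD above 1 was reached by 55 genes in contracted and 40 in resting muscle. Tnnt1 and Tnnc1, slow troponin genes, had their lowest contracted values at 12.27 and 12.08, against contracted medians of 15.23 and 14.77 and resting minima of 14.72 and 14.47. These 2 genes were chosen after their values were seen.

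The question raised by the knockout arm is whether LKB1, the kinase that activates AMP-activated protein kinase, alters this response. The difference between the responses, knockout minus wild type, was called for 0 genes (0%) by limma, and 52 genes (0.62%) had an unadjusted p under 0.05. In the knockout alone 1 gene was called (0.0119%) and 170 (2.03%) had an unadjusted p under 0.05. Both unadjusted counts were below the share of about 0.05 that is expected without any effect. The called gene was Sphk1, which encodes sphingosine kinase 1, the maker of sphingosine 1-phosphate. In wild-type muscle Sphk1 averaged 8.35 ± 0.22 contracted and 8.08 ± 0.21 resting, a difference of 0.27, whereas in knockout muscle it averaged 9.08 ± 0.57 contracted and 7.83 ± 0.26 resting, a difference of 1.25 (SD, n = 7 each). The responses differed by 0.98 (knockout minus wild type, standard error 0.25), with the smallest unadjusted limma p of all genes for this comparison, 0.000628, which adjusted to 1.

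For the genes that led in wild-type muscle, the responses of the genotypes could not be told apart by limma after adjustment. Cxcl1 differed by 1.94 in wild-type and by 1.25 in knockout muscle, and the difference of responses was -0.68 with a 95% interval from -1.85 to 0.48. For Egr1 the responses were 1.26 in wild-type and 1.66 in knockout muscle, for Socs3 1.27 and 1.99, for Ptx3 0.79 and 0.60, for Hmox1 0.57 and 0.55 and for Selp 0.35 and 0.49. The intervals are wide: that for Socs3 ran from -1.09 to 2.53. Agt differed by 0.77 in wild-type and 0.16 in knockout muscle, and the difference of responses, -0.62, had an unadjusted limma p of 0.0293. Zfp296 gave 0.52 in wild-type and 0.05 in knockout muscle, Zfp251 0.35 and -0.03, Rbms3 -0.35 and -0.0040 and Gadd45g -0.35 and 0.04. Their unadjusted limma p for the difference of responses were 0.0300, 0.0262, 0.0307 and 0.0459. For the other genes of smallest p in either direction it was above 0.05. All missed the adjusted threshold, and these genes were picked by their wild-type values. Vegfa differed by 0.55 in wild-type and 0.08 in knockout muscle (difference of responses -0.47, 95% interval -1.14 to 0.19).

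Several genes whose wild-type intervals held 0, immediate-early genes among them, gave larger values in the knockout. Other immediate-early genes did not: Jun gave -0.27 in wild-type and -0.40 in knockout muscle, and Nr4a3 gave 0.34 and -0.0052. Ccn1 gave -0.0021 and 0.01. The limma intervals use the spread of all 4 groups, and the knockout SDs for Fos were 1.51 in contracted and 0.64 in resting muscle. The Fos probe was above the limit on only 4 contracted and 2 resting wild-type arrays, and the offset makes differences of such dim values smaller. Its knockout means, 9.33 contracted and 7.44 resting, lay further above the limit. Fos differed by 0.49 in wild-type and 1.89 in knockout muscle, and the difference of responses was 1.39 with a 95% interval from 0.06 to 2.73 (limma adjusted p = 1). For Zfp36 the responses were 0.29 and 1.18 and the difference was 0.89 (limma adjusted p = 1). Junb gave 0.57 in wild-type and 1.21 in knockout muscle, and Ppargc1a 0.16 and 0.59. Slc10a6, a transporter gene for steroid sulfates, gave 0.11 in wild-type and 0.88 in knockout muscle, a difference of 0.76. The 3 other genes of smallest p for this comparison had the reverse order: Zfp82, a zinc finger gene, gave 0.12 in wild-type and -0.25 in knockout muscle, Psmd9, a proteasome chaperone gene, 0.19 and -0.13, and Hoxc13, a homeobox gene, 0.11 and -0.16. All 3 lay close to the intensity limit. The median response of the AP-1 list was 0.27 in wild-type and 0.66 in knockout muscle, and the list includes Fos and Fosb, which were close to the limit in wild-type muscle.

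**Figure D5:**
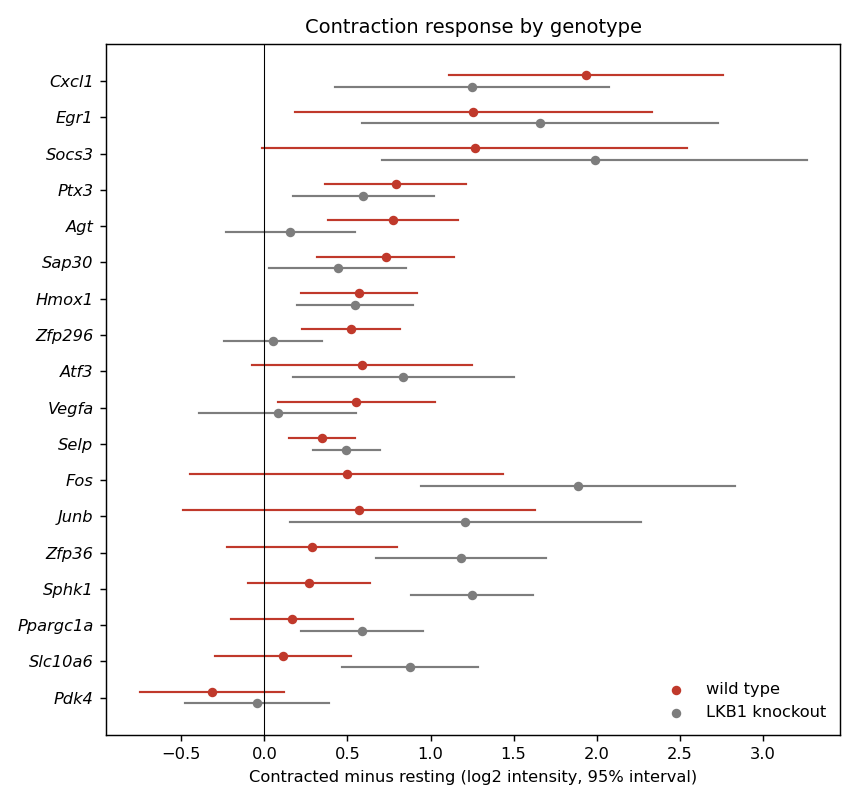
Contracted minus resting difference (x axis, log2 intensity) of 18 genes in wild-type (red, upper) and LKB1 knockout (grey, lower) muscle; points are fitted differences and bars 95% intervals from the limma fit over all 28 arrays. Wild-type and knockout bars overlap for the genes shown except Sphk1.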

How the data were processed

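Total RNA from 28 calf muscle samples was hybridised to Illumina bead arrays. The deposited table gives 1 intensity per probe and sample, on a linear scale; from the values, the authors' intensities were background-subtracted (27.2% below 0, lowest -36.07) and quantile-normalized, and per the submitters' processing notes R 3.1.2, lumi 3.0 and limma 3.1 were used, with the genome build not given in the sources used here. A second deposited table of raw intensities carries a detection p-value per probe from the authors' scanner software. In it 7 resting wild-type arrays matched the labels: a normalized intensity of 24.3 corresponded to a detection p of 0.05, 36.0% to 43.1% of probes were detected and mean raw intensity was 201 to 446; the 21 other intensity columns were not used. The number of arrays, not a read depth, limits the precision.

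Of 25697 probes, 23978 had 1 gene symbol, 0 had several and 1719 had none in the platform annotation. Probes above 24 on at least 7 of 28 arrays were kept (11723, of which 11073 had a symbol), and the brightest probe stood for each of 8389 genes; 2013 genes had more than 1 kept probe. The authors' intensities were put through normexp with an offset of 50 and log2 (an intensity of 24 lies near 6.65), then fitted with limma 3.58.1 in R 4.3.3 as 4 group means over all 28 arrays, with Benjamini-Hochberg adjustment over all genes and calls under 0.05. Exact two-sided permutation tests used the 14 wild-type samples. The procedure was tested on simulated data.

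The members and lists were chosen with earlier results of these data known. Named genes were the 10 of smallest p in each direction, since fewer than 10 were called, the 3 of smallest p in each list, a fixed set of contraction and metabolic genes, and the 5 of smallest p for the genotype comparison. The alternatives tried were the transformation, the limit on dim probes, the probe rule, the samples fitted, array weights, a replicate block and leaving out samples. The labels give no batch. The replicate numbers were checked as pairs: 5 of 7 wild-type pairs and 7 of 7 knockout pairs had a correlation of deviations over 0.1; since not every wild-type pair did, and the labels do not say what a number shares, the wild-type samples were not treated as paired.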

Additional observations from a re-analysis of the deposited data

Results flagged for a closer look

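Of 198 groups of 7 samples examined among the named genes, 18 held a sample whose gap to its nearest neighbour, as a share of the group's range, passed Dixon's limit of 0.568; chance alone marks about 1 group in 20. The values are log2 intensities. Contracted sample 4, the one low in slow-fibre markers, was the outlying sample for 7 genes: Sap30 (11.48), Zfp296 (8.02), Hk2 (14.64), Bhlhe40 (10.64) and Rps6 (12.52) at the high end, and Ankrd2 (9.74) and Stk11 (10.10) at the low end. In other contracted samples, Gadd45b was high in sample 1 (9.42), Ppp1r15a and Psmd9 were low in sample 3 (8.39 and 6.21), and Ppargc1a was low in sample 5 (9.10). In resting samples, Sphk1 was high in sample 6 (8.50), Il1b in sample 5 (6.91), Klf3 in sample 7 (7.09) and Pigz in sample 2 (7.30). Flt1 was low in resting sample 4 (9.88), and Icam1 and Hoxc13 were low in resting sample 2 (6.58 and 6.39).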

How the results depend on the processing

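No gene was called for wild-type contraction under 23 of the 26 alternatives, and none for the difference of responses under 23 of the 24 that could give it; the exceptions used array weights or the replicate block. With array weights 1 gene was called for wild-type contraction (Cxcl1, adjusted p = 0.0406) and 2 for the difference of responses (Slc10a6 and Sphk1). With the replicate number as a block 1 gene was called (Cxcl1, adjusted p = 0.0262), and 0 for the difference of responses; with the replicate block on wild-type arrays alone 1 gene was called (Egr1, adjusted p = 0.00512). Whether equal numbers share an animal or a batch is not known: 5 of 7 wild-type pairs had a correlation of deviations over 0.1 (range -0.038 to 0.55, 1 best with its own number), against 7 of 7 knockout pairs (0.37 to 0.85, 4 best with their own number). The cause of these calls was not tested. Leaving out each wild-type sample in turn gave 0 calls each time, with 57 to 164 genes at an unadjusted p under 0.05 against 89 with all samples: 164 without contracted sample 4, 156 without resting sample 3 and 57 without resting sample 2. Without the samples high in lymphocyte markers, or without all 4 that stood apart, settings chosen after seeing the data, 122 and 88 genes had an unadjusted p under 0.05 and 0 were called.

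Of the 99 named genes, 89 kept their sign under every alternative tried. The 10 that did not were all uncalled, with differences from -0.33 to 0.25, and the cause was not tested. Ccn1 turned to 0.0032 without normexp, 0.0057 at the smaller offset, 0.019 as the mean of its probes, 0.089 without the samples high in lymphocyte markers and 0.13 without all 4 samples, and ran from -0.091 to 0.065 with 1 sample left out. Array weights gave Nr1d1 -0.024, Hspb7 0.0025, Dusp1 0.0022 and Slc10a6 -0.00065. Hspb7 ran from -0.31 to 0.0051 and Dusp1 from -0.27 to 0.013 with 1 sample left out. Without the samples high in lymphocyte markers Rps6 was 0.019, Rpl27 0.066, Rps20 0.032, Dusp1 0.083 and Ppargc1a -0.063; without all 4 samples Dusp1 was 0.027, Ppargc1a -0.054 and Ankrd2 0.031. Signal over background limits, among others, Agt, Ptx3, Cxcl1, Ccl4, Il1b, Fos, Hmox1, Isg15 and Zfp296, which were below the limit on 2 or more resting arrays each.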
